A study of Homo sapiens with 4 samples.

Results

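A set of 31 genes stood high in 1 of 4 RNA sequencing libraries of hTERT-RPE1 cells, the library labelled sgControl replicate 1. A gene was taken when its level in that library was at least 5 CPM (counts per 1000000 counts of the library) and at least 2.5 times its level in each of the other 3 libraries. Of 19653 genes in the table, 38 met these thresholds. Symbols that begin with CXCL, CCL, IL1, CSF, COL, CDH, PCDH, SEMA or WNT, and the genes PTGS2 and TFPI2, were left out by name, which took away 7. These were PTGS2, TFPI2, CCL4, CCL4L2, CCL5, CDH6 and COL4A6, at 6.66 to 487 CPM in sgControl replicate 1. The set was chosen by the CPM values of all 4 libraries, so the gap between sgControl replicate 1 and the others is a description and carries no test.

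hTERT-RPE1 cells are retinal pigment epithelial cells of human origin that divide without limit because they express telomerase. Libraries labelled sg53BP1 came from cells with a lentiviral Cas9 vector and a guide RNA against 53BP1, and libraries labelled sgControl from cells with the Cas9 vector and no guide, labelled WT. Neither group was treated, and each had 2 libraries. Separate cultures or clones behind the 2 libraries of a group are not stated, so any p-value reflects the spread of these samples alone, and that spread may be technical. Total counts were 18164086 and 17883332 in the libraries labelled sg53BP1, and 16654411 and 16830331 in those labelled sgControl. The targeted gene, TP53BP1, was at 96.0 and 84.8 CPM in the libraries labelled sg53BP1 and at 25.9 and 35.3 CPM in those labelled sgControl, which goes against a loss of its RNA where the knockout is labelled. Directions are therefore given by the labels of the libraries. Of 14 markers of retinal pigment epithelium, 12 had a row and 8 reached 1 CPM in a library, among them MITF and OTX2, while TYR, TYRP1, DCT and RLBP1 stayed under it. OTX2 was at 6.85 CPM in sgControl replicate 1, against 12.1 and 11.5 CPM in the libraries labelled sg53BP1 and 9.27 CPM in sgControl replicate 2, and MITF at 29.1 CPM, against 37.4, 31.6 and 30.3 CPM, so that both were lowest in sgControl replicate 1. Of the others that reached 1 CPM, KRT18, SERPINF1 and LRAT were also lowest there. BEST1 was highest there, with 25 counts, against 10 and 3 in the libraries labelled sg53BP1 and 5 in sgControl replicate 2. KRT8 and PMEL were lowest in sg53BP1 replicate 1. The 12 markers with a row summed to 698 CPM in sgControl replicate 1 and 1067 CPM in sgControl replicate 2. In the libraries labelled sg53BP1 the sum was 680 and 728 CPM. The part of these differences in the levels of the set was not tested. In bulk RNA, a change in the number of cells that express a gene and a change in RNA per cell cannot be told apart.

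The genes of the set belong to several systems. Cubilin, the product of CUBN, is an endocytic receptor of kidney tubule and intestine that takes up vitamin B12 bound to its carrier, and albumin, together with amnionless and megalin. NF-kB is a transcription factor that is held in the cytoplasm by inhibitors until receptors of tumour necrosis factor, interleukin-1 or pathogen sensors release it, after which it switches on cytokine genes and its own negative regulators. Hedgehog and bone morphogenetic protein (BMP) ligands are secreted signals of development, and enzymes that add sialic acid or sulphate shape the sugar chains of the cell surface.

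The same thresholds found far fewer genes in either library labelled sg53BP1. With the same families left out, the count was 31 for sgControl replicate 1, 0 for sg53BP1 replicate 1, 0 for sg53BP1 replicate 2 and 102 for sgControl replicate 2. At a ratio of 1.5 the counts were 180, 2, 6 and 390 in the same order of libraries. The opposite pattern, at least 5 CPM in each other library and at least 2.5 times lower in the named one, was met by 66 genes for sgControl replicate 1, by none for either library labelled sg53BP1 and by 17 for sgControl replicate 2. Both libraries labelled sgControl thus held genes at levels that no other library reached, and sgControl replicate 2 held more of them. These counts come from single libraries and have no replicate check.

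**Figure D1:**
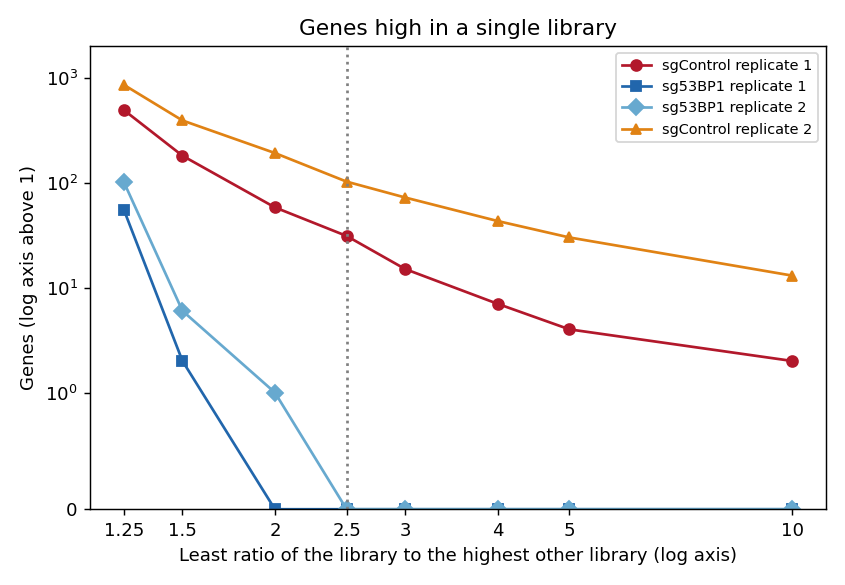
Number of genes (vertical axis, logarithmic above 1) whose level in a library is at least the given ratio (horizontal axis, logarithmic) times the highest of the other 3 libraries, among genes with at least 5 CPM in that library; the dotted line marks a ratio of 2.5. At that ratio sgControl replicate 1 holds 31 genes, either library labelled sg53BP1 holds 0 and sgControl replicate 2 holds 102.

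The 31 genes took 0.135% of the counts of sgControl replicate 1. Their summed level was 1350 CPM there, against 216 and 198 CPM in the libraries labelled sg53BP1 and 287 CPM in sgControl replicate 2. CCDC171, CUBN and HHIP held 54.4% of their counts in sgControl replicate 1. Levels in that library ran from 5.88 to 277 CPM with a median of 15.7, and no gene of the set had fewer than 98 counts there. The ratio to the highest other library had a median of 2.97. It reached 3 for 15 genes, 4 for 7 genes, 5 for 4 genes and 10 for 2 genes. For 16 genes the lower bound of the ratio's 95% exact (Clopper-Pearson) counting interval was itself at or above 2.5, and for the other 15 it lay between 1.86 and 2.5. These intervals hold counting error alone and no spread between libraries. They can be too narrow even for counting error, because reads counted without molecular identifiers can be copies of one molecule.

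**Figure D2:**
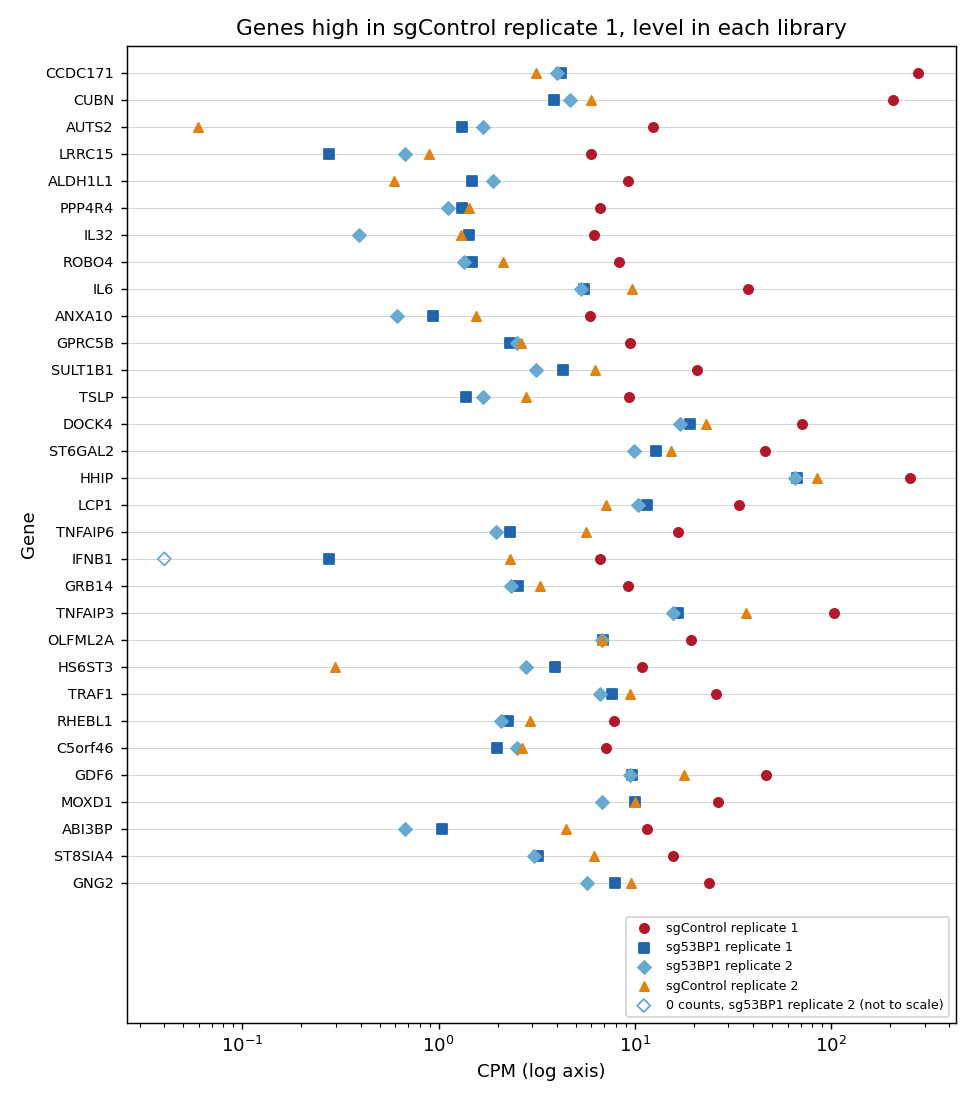
Level of each of the 31 genes in CPM (horizontal axis, logarithmic) in each library (symbols), with genes ordered from the highest to the lowest ratio of sgControl replicate 1 to the next library; the open symbol marks 0 counts and is not to scale. CCDC171 and CUBN stand furthest from their other libraries, and AUTS2 and HS6ST3 are lowest in sgControl replicate 2.

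CCDC171 and CUBN stood apart from the rest of the set. CCDC171 encodes a coiled-coil protein with no well-established function. It was at 277 CPM in sgControl replicate 1 (4607 counts), against 4.18 and 4.03 CPM in the libraries labelled sg53BP1 and 3.15 CPM in sgControl replicate 2. CUBN was at 206 CPM in sgControl replicate 1 (3434 counts), against 3.85 and 4.70 CPM in the libraries labelled sg53BP1 and 5.94 CPM in sgControl replicate 2. Both were thus present at a low level in every library and high in 1. The ratio to the highest other library was 66.1 for CCDC171 (95% counting interval 52.7 to 84.1) and 34.7 for CUBN (28.4 to 42.8), while no other gene of the set passed 7.41. Per length, over the merged exons of GENCODE release 29, their levels in sgControl replicate 1 were 22.8 CPM per kb for CCDC171 and 15.5 CPM per kb for CUBN. On this scale IL6 was at 18.3, HHIP at 20.9 and TNFAIP3 at 20.6 CPM per kb in the same library, so that CCDC171 and CUBN lay among the genes of the set with the highest levels per length.

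The genes beside CCDC171 and CUBN did not share their pattern. CCDC171 lies on chromosome 9 and CUBN on chromosome 10, and neither overlaps an annotated gene other than possible small RNAs or processed pseudogenes, which were not considered. Among the 10 genes nearest to CCDC171 with at least 1 CPM in a library, 5 on each side, the ratio of sgControl replicate 1 to the highest other library lay between 0.644 and 1.03. Its direct neighbours, named after their values were seen, were PSIP1 at 143 CPM in sgControl replicate 1, against 138 and 133 CPM in the libraries labelled sg53BP1 and 109 CPM in sgControl replicate 2, and BNC2 at 48.5 CPM, against 51.0, 43.2 and 54.1 CPM. Around CUBN the ratios of the 10 genes lay between 0.541 and 1.19. RSU1 on one side was at 121 CPM in sgControl replicate 1, against 114 and 115 CPM in the libraries labelled sg53BP1 and 103 CPM in sgControl replicate 2. No gene of the set had another gene of the set among the 5 nearest genes on either side.

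**Figure D3:**
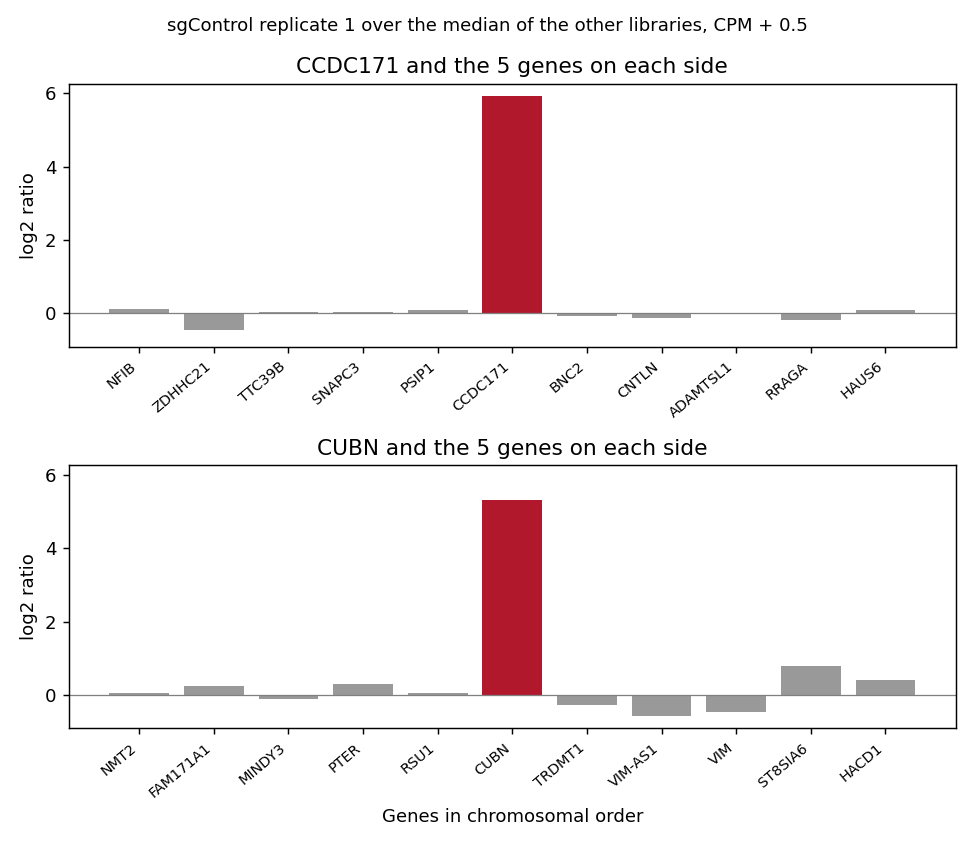
Bars give the log2 ratio of sgControl replicate 1 to the median of the other 3 libraries, on CPM with 0.5 added, for CCDC171 and CUBN (red) and the 5 genes on each side in chromosomal order (grey). CCDC171 reaches 5.94 and CUBN 5.31, while every grey bar lies between -0.58 and 0.80.

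The promoters of CCDC171 and CUBN differed in base composition. They are shown because these genes carry the widest gap between libraries. The sequences are the 250 bases before the RefSeq start site (GRCh38.p14, another build than that of the counts), chr9:15552793-15553042 on the plus strand for CCDC171 and chr10:17129812-17130061 on the minus strand for CUBN. Capitals mark a GC box (CCGCCC on either strand) and a CCAAT box.
CCDC171: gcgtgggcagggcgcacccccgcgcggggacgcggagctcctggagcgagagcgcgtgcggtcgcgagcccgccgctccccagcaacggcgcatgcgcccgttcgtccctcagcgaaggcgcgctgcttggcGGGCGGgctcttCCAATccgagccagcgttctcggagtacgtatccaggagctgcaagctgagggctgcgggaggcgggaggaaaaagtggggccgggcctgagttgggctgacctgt
CUBN: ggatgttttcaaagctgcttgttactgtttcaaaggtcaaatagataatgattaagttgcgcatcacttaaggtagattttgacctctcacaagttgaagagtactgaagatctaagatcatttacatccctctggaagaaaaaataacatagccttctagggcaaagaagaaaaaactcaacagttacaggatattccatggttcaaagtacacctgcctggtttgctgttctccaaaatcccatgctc
Over the whole window, which ends 50 bases after the start, 69.0% of the CCDC171 promoter was G or C and it held 35 CG steps, against 40.7% and 1 CG step for CUBN. None of the 9 motifs searched was found in the CUBN window, which says only that these letters are not there.

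Other genes that mark kidney tubule cells were near 0 in the library with high CUBN. Of 9 proximal tubule markers 7 had a row, and CUBN alone reached 1 CPM in a library. AMN, which encodes the amnionless partner that cubilin needs to reach the cell surface, had 3 counts in sgControl replicate 1, 1 and 0 in the libraries labelled sg53BP1 and 2 in sgControl replicate 2. LRP2, which encodes megalin, had 3 counts in sgControl replicate 1, 3 and 4 in the libraries labelled sg53BP1 and 15 in sgControl replicate 2. On a list of 8 genes of cubilin and megalin uptake, CUBN was the only gene of the set. The adaptor DAB2 was at 95.1 CPM in sgControl replicate 1, against 98.1 and 96.4 CPM in the libraries labelled sg53BP1 and 134 CPM in sgControl replicate 2.

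Genes of inflammatory signalling made up 7 of the 31 by known role, a grouping made after the values were seen. IL6, an inflammatory cytokine, was at 37.8 CPM in sgControl replicate 1, against 5.51 and 5.31 CPM in the libraries labelled sg53BP1 and 9.68 CPM in sgControl replicate 2. TNFAIP3, which encodes the ubiquitin-editing inhibitor of NF-kB known as A20, was at 104 CPM in sgControl replicate 1, against 16.6 and 15.6 CPM in the libraries labelled sg53BP1 and 36.8 CPM in sgControl replicate 2. Both libraries labelled sgControl were above both labelled sg53BP1 for these genes, with sgControl replicate 1 the highest by the rule. TNFAIP6, a secreted hyaluronan-binding protein of inflammation, showed the same order with 16.5 CPM in sgControl replicate 1, against 2.31 and 1.96 CPM in the libraries labelled sg53BP1 and 5.64 CPM in sgControl replicate 2. IFNB1, which encodes interferon beta, had 110 counts (6.60 CPM) in sgControl replicate 1, 5 and 0 counts in the libraries labelled sg53BP1 and 39 counts (2.32 CPM) in sgControl replicate 2. IFNB1 was thus close to 0 in both libraries labelled sg53BP1 and counted in both labelled sgControl. TSLP, an epithelial cytokine that acts on dendritic cells, was at 9.31 CPM in sgControl replicate 1, against 1.38 and 1.68 CPM in the libraries labelled sg53BP1 and 2.79 CPM in sgControl replicate 2. TRAF1, an adaptor of tumour necrosis factor receptors, was at 25.9 CPM in sgControl replicate 1, against 7.65 and 6.65 CPM in the libraries labelled sg53BP1 and 9.45 CPM in sgControl replicate 2. IL32, an inducible cytokine, was the exception to the order of the other libraries, with 6.18 CPM in sgControl replicate 1, 1.43 and 0.391 CPM in the libraries labelled sg53BP1 and 1.31 CPM in sgControl replicate 2.

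The wider NF-kB list leaned high in sgControl replicate 1, mostly by less than the rule asks. The ratio used is the one that chose the set, so set genes on a list raise its values by choice. On a list of 21 NF-kB and AP-1 regulators, 20 were at 5 CPM or more in that library, TNFAIP3 alone belonged to the set, and 12 of the 20 (60.0%) were higher there than in each other library. Over all 10320 genes at that level, 27.3% were. The median ratio to the highest other library was 1.13 over the 20 regulators and 0.902 over all genes at that level, given as a description with no test. The inhibitor NFKBIA was at 55.3 CPM in sgControl replicate 1, against 29.5 and 28.2 CPM in the libraries labelled sg53BP1 and 24.1 CPM in sgControl replicate 2. BIRC3, a ubiquitin ligase of tumour necrosis factor signalling, was at 18.9 CPM in sgControl replicate 1, against 7.98 and 4.70 CPM in the libraries labelled sg53BP1 and 9.09 CPM in sgControl replicate 2. The others of the 12 were NFKBIB, NFKBIE, NFKBIZ, NFKB1, NFKB2, RELB, JUNB, FOSL2 and BATF3. RELA, the main transactivating subunit, was among those that were not highest there, with 85.6 CPM in sgControl replicate 1, 73.7 and 87.0 CPM in the libraries labelled sg53BP1 and 97.2 CPM in sgControl replicate 2. On a list of 17 interleukins and related cytokines (some with names beginning IL1, which the rule leaves out), 9 were at 5 CPM. Their median ratio was 1.27 with the genes of the set counted in. Of these 9, IL6, IL32, TSLP, IL11 and IL12A were highest in sgControl replicate 1, of which IL6, IL32 and TSLP belonged to the set. CLCF1, IL7, IL15 and LIF were highest in sgControl replicate 2. Outside the set, more of these cytokines were thus highest in sgControl replicate 2 than in sgControl replicate 1. Related lists leaned low in sgControl replicate 1 and held no gene of the set. Of 40 interferon-stimulated genes, 32 were at 5 CPM there, with a median ratio of 0.303, against 0.902 over all genes. Of 15 complement and acute phase genes, 7 were at 5 CPM, with a median ratio of 0.4675. These lists were also picked with their values in view. The genes outside the set were named after their values were seen.

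Letters that match an NF-kB site stood before 4 genes of the inflammatory group. They are shown because these are the genes of the group with a match in the window. The sequences are again the 250 bases before the RefSeq start site in GRCh38.p14: IL6 at chr7:22726950-22727199 and IL32 at chr16:3065153-3065402 on the plus strand, IFNB1 at chr9:21077943-21078192 on the minus strand and TNFAIP3 at chr6:137867009-137867258 on the plus strand. Capitals mark NF-kB matches and, in IFNB1 alone, a TATA box (TATAAA); the 2 NF-kB matches in IL32 overlap each other.
IL6: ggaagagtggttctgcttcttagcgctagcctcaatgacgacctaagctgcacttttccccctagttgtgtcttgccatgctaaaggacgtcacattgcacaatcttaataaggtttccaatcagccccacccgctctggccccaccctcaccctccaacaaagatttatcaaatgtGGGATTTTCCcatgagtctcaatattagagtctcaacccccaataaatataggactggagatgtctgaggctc
IL32: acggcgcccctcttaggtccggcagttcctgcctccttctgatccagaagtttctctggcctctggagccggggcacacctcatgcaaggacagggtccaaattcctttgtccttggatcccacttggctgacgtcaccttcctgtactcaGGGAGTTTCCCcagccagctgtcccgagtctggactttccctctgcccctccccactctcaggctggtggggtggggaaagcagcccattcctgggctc
IFNB1: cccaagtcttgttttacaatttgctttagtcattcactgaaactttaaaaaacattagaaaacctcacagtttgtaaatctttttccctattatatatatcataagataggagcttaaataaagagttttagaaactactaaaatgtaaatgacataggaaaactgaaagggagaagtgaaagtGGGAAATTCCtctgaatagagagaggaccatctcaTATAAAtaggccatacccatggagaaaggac
TNFAIP3: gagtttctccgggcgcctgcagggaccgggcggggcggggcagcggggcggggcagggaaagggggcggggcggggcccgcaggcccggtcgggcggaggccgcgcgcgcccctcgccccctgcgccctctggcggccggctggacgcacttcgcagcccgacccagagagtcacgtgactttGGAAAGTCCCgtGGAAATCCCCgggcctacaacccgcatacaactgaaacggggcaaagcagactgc
Of the set, 29 genes had a promoter in the RefSeq table, all but 2 of 31. The NF-kB motif, searched on both strands of the whole window, was in 5 of the 29 (17.2%), against 12.7% of 8453 promoters of genes at 5 CPM in sgControl replicate 1 and 10.8% of all 27305 promoters. The fifth was OLFML2A. The letters of the TATA box, on either strand, were in 7 of the 29 (24.1%), against 4.92% and 11.95% of the same promoter sets. TATAAA began at base -29 from the start site in ANXA10, -31 in IFNB1 and -30 in C5orf46. SULT1B1 held the letters of the other strand, TTTATA, from -29. The matches of ALDH1L1 (-149), LCP1 (-247 and -97) and ABI3BP (-236) lay further from the start site. The AP-1 motif TGANTCA was in 4 (13.8%), namely LRRC15, DOCK4, TNFAIP6 and GNG2, against 4.16% and 7.76%. The CCAAT box was in 5 (17.2%), against 37.1% and 35.7%, and the GC box in 16 (55.2%), against 71.9% and 44.6%. The motifs TGACGTCA, GGAATG and CACGTG were in 2, 2 and 1 promoters of the set, and the CArG box in none. The median share of G and C was 62.3% in the set and 65.7% in the promoters of genes at 5 CPM. A match is a description of letters and not a sign that a factor bound there.

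Regulators of developmental signals gave the set a further gene of high level. HHIP, a membrane protein that binds hedgehog ligands and blocks them, was at 252 CPM in sgControl replicate 1, against 66.9 and 65.8 CPM in the libraries labelled sg53BP1 and 84.8 CPM in sgControl replicate 2. HHIP was thus well expressed in every library. HHIP-AS1, named after its values were seen, lies on the opposite strand and overlaps HHIP. It was at 23.2 CPM in sgControl replicate 1, against 7.87 and 8.05 CPM in the libraries labelled sg53BP1 and 16.9 CPM in sgControl replicate 2, so its reads and those of HHIP cannot be told apart without a stated strand. GDF6, a BMP family ligand, was at 46.8 CPM in sgControl replicate 1, against 9.69 and 9.45 CPM in the libraries labelled sg53BP1 and 17.7 CPM in sgControl replicate 2. On a list of 32 BMP and TGF-beta ligands and antagonists, GDF6 was the only gene of the set, and the median ratio of the 16 genes at 5 CPM was 1.12, against 0.902 over all genes at that level.

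Surface and matrix genes of the set were mostly low. LRRC15, whose product spans the membrane and carries leucine-rich repeats, was at 5.94 CPM in sgControl replicate 1, against 0.275 and 0.671 CPM in the libraries labelled sg53BP1 and 0.891 CPM in sgControl replicate 2. ROBO4, a roundabout receptor best known from endothelium, was at 8.35 CPM in sgControl replicate 1, against 1.49 and 1.34 CPM in the libraries labelled sg53BP1 and 2.14 CPM in sgControl replicate 2. Of the 6 endothelial markers, PECAM1 and KDR alone reached 1 CPM in a library. PECAM1 was highest in sgControl replicate 1, with 2.58 CPM there, 1.76 and 0.839 CPM in the libraries labelled sg53BP1 and 0.713 CPM in sgControl replicate 2. KDR was highest in sgControl replicate 2, with 50 counts in sgControl replicate 1, 34 and 20 in the libraries labelled sg53BP1 and 233 in sgControl replicate 2. CDH5 had no count in sgControl replicate 1 or in the libraries labelled sg53BP1, and the 6 markers summed to 6.66 CPM in sgControl replicate 1, 4.29 and 3.19 CPM in the libraries labelled sg53BP1 and 16.5 CPM in sgControl replicate 2. ABI3BP, a matrix protein, was at 11.6 CPM in sgControl replicate 1, against 1.05 and 0.671 CPM in the libraries labelled sg53BP1 and 4.46 CPM in sgControl replicate 2. OLFML2A, a secreted olfactomedin-like protein, had almost equal levels outside the high library, with 19.3 CPM in sgControl replicate 1, 6.88 and 6.82 CPM in the libraries labelled sg53BP1 and 6.83 CPM in sgControl replicate 2. Fibroblast markers, 6 of 8 of them at 1 CPM in a library, summed to 378 CPM in sgControl replicate 1, 203 and 215 CPM in the libraries labelled sg53BP1 and 336 CPM in sgControl replicate 2, with COL1A2 and LUM under 1 CPM throughout. DCN, a fibroblast proteoglycan, had 22 counts in sgControl replicate 1, 3 and 3 in the libraries labelled sg53BP1 and 2 in sgControl replicate 2. FAP was at 149.8 CPM in sgControl replicate 1, against 69.9 and 71.7 CPM in the libraries labelled sg53BP1 and 99.3 CPM in sgControl replicate 2. DCN, FAP and PDGFRB were highest in the same library as the set, PDGFRB with 25.2 CPM there and 23.9 CPM in sgControl replicate 2. THY1 and PDGFRA were highest in sgControl replicate 2, at 199 and 3.98 CPM, against 190 and 2.88 CPM in sgControl replicate 1. COL1A1 was highest in sg53BP1 replicate 2, at 11.4 CPM, against 9.25 CPM in sgControl replicate 1. Of 4 keratinocyte markers with a row, KRT10 alone reached 1 CPM, with 22.2 CPM in sgControl replicate 1, 14.0 and 16.3 CPM in the libraries labelled sg53BP1 and 14.7 CPM in sgControl replicate 2. The part of such cells, endothelial, fibroblast or keratinocyte, in the levels of the set was not tested.

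Enzymes that build sugar chains included a pair of sialyltransferases and a heparan sulphate sulphotransferase. ST6GAL2 was at 46.0 CPM in sgControl replicate 1, against 12.8 and 9.90 CPM in the libraries labelled sg53BP1 and 15.3 CPM in sgControl replicate 2. ST8SIA4, which makes polysialic acid, was at 15.7 CPM in sgControl replicate 1, against 3.19 and 3.08 CPM in the libraries labelled sg53BP1 and 6.18 CPM in sgControl replicate 2. HS6ST3, the sulphotransferase, had another order, with 10.9 CPM in sgControl replicate 1, 3.91 and 2.80 CPM in the libraries labelled sg53BP1 and 0.297 CPM in sgControl replicate 2. The sialyltransferases thus kept sgControl replicate 2 above both libraries labelled sg53BP1, and HS6ST3 had it lowest. Among other enzymes, ALDH1L1, a dehydrogenase of folate metabolism, was likewise lowest in sgControl replicate 2, with 9.25 CPM in sgControl replicate 1, 1.49 and 1.90 CPM in the libraries labelled sg53BP1 and 0.594 CPM in sgControl replicate 2. The cytosolic sulphotransferase SULT1B1 was at 20.8 CPM in sgControl replicate 1, against 4.29 and 3.13 CPM in the libraries labelled sg53BP1 and 6.24 CPM in sgControl replicate 2. MOXD1, a relative of dopamine beta-hydroxylase, was at 26.5 CPM in sgControl replicate 1, against 10.0 and 6.82 CPM in the libraries labelled sg53BP1 and 10.0 CPM in sgControl replicate 2. On a list of 117 genes of retinoid, steroid and foreign compound metabolism, SULT1B1 and ALDH1L1 were the only genes of the set.

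Intracellular signalling and cytoskeletal genes made up 7 more. DOCK4, an exchange factor that activates Rac, was at 71.0 CPM in sgControl replicate 1, against 19.2 and 16.9 CPM in the libraries labelled sg53BP1 and 22.9 CPM in sgControl replicate 2. LCP1, an actin-bundling protein best known from leukocytes, was at 34.1 CPM in sgControl replicate 1, against 11.5 and 10.3 CPM in the libraries labelled sg53BP1 and 7.13 CPM in sgControl replicate 2. The leukocyte markers with a row, PTPRC, CD14, CD68 and LYZ, stayed under 1 CPM in every library, at 3, 4, 2 and 7 counts in sgControl replicate 1. The G protein subunit GNG2, the orphan receptor GPRC5B, the insulin receptor adaptor GRB14, the small GTPase RHEBL1 and the phosphatase subunit PPP4R4 lay between 6.66 and 24.0 CPM in sgControl replicate 1, with ratios of 2.52 for GNG2, 3.63 for GPRC5B, 2.83 for GRB14, 2.68 for RHEBL1 and 4.67 for PPP4R4 to the highest other library. The remaining genes were ANXA10, an annexin, at 5.88 CPM, C5orf46 at 7.09 CPM and AUTS2, a nuclear regulator known from brain development, at 12.4 CPM. AUTS2 had 207 counts in sgControl replicate 1, 24 and 30 in the libraries labelled sg53BP1 and 1 in sgControl replicate 2.

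The order of the other 3 libraries was not set by the rule, which bounds them alike. sgControl replicate 2 lay above both libraries labelled sg53BP1 for 24 of the 31 genes and below both for 5, namely CCDC171, AUTS2, ALDH1L1, LCP1 and HS6ST3. The libraries labelled sg53BP1 lay within 1.5-fold of each other for 26 genes. The shares of all genes in these orders are not given here, so none of these counts is read as particular to the set. To compare levels without the library that chose the genes, the libraries labelled sg53BP1 were set against sgControl replicate 2 alone in edgeR's quasi-likelihood test over 13682 genes, with Benjamini-Hochberg adjustment. The lone sgControl library was assumed to vary like the pair labelled sg53BP1, and this fit called 24.5% of all genes. Of the 31 genes, all tested, 10 passed an adjusted p of 0.05 (32.3%). In the libraries labelled sg53BP1 3 were higher, against a background of 11.8%, and 7 were lower, against 12.7%. The median log2 difference of the set, sg53BP1 minus sgControl replicate 2, was -0.41, against 0.0045 for all genes tested. From these counts nothing is called particular to the set. The assumption of like spread goes against the values seen. Genes high in a single library numbered 31 and 102 for the libraries labelled sgControl, and 0 and 0 for those labelled sg53BP1. The fitted spread, as a coefficient of variation, was 0.077 without sgControl replicate 1 and 0.180 with all 4 libraries. The p-values without sgControl replicate 1 thus hold the spread of the pair labelled sg53BP1, not that between sgControl libraries.

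Of the 10 genes that passed in this fit, 4 were of the inflammatory group, out of its 7. IFNB1 fell by 3.97 on the log2 scale in the libraries labelled sg53BP1 relative to sgControl replicate 2, with a standard error, SE, of 0.79 (edgeR adjusted p = 8.01e-06), on 5 counts against 39. TNFAIP3 fell by 1.17 with an SE of 0.17 (edgeR adjusted p = 1.37e-10), and was lower in both of the libraries labelled sg53BP1. TNFAIP6 fell by 1.37 with an SE of 0.34 (edgeR adjusted p = 6.50e-04) and IL6 by 0.81 with an SE of 0.26 (edgeR adjusted p = 0.00934). For these 4 genes the libraries labelled sg53BP1 were thus lower than sgControl replicate 2. That they were also lower than sgControl replicate 1 was set by the rule. Outside that group, ABI3BP fell by 2.34 with an SE of 0.45 (edgeR adjusted p = 2.95e-06), GDF6 by 0.86 (edgeR adjusted p = 2.65e-04) and ST8SIA4 by 0.95 (edgeR adjusted p = 0.0133). With the DESeq2 Wald test ABI3BP and TNFAIP3 kept their calls, while IFNB1, TNFAIP6, IL6, GDF6 and ST8SIA4 did not (adjusted p = 0.617, 0.156, 0.273, 0.0749 and 0.334 in that order). Without a filter on low counts IL6 and ST8SIA4 also missed the threshold (edgeR adjusted p = 0.058 and 0.064).

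AUTS2, HS6ST3 and LCP1 rose in the libraries labelled sg53BP1 relative to sgControl replicate 2. AUTS2 had 54 counts over the pair labelled sg53BP1 and 1 in sgControl replicate 2, 25.2 times as many per unit of depth, with a 95% exact counting interval of 4.34 to 1014 (edgeR adjusted p = 5.24e-04; DESeq2 adjusted p = 0.0647). HS6ST3 had 121 counts over the pair and 5 in sgControl replicate 2, 11.3 times as many per unit of depth (4.71 to 35.4 as the same interval) (edgeR adjusted p = 3.11e-07). LCP1 rose by 0.64 on the log2 scale with an SE of 0.24 (edgeR adjusted p = 0.0338; DESeq2 adjusted p = 0.347; edgeR adjusted p = 0.0985 without the filter on low counts). For AUTS2 and HS6ST3 sgControl replicate 2 was thus the lowest of the 4 libraries. As sgControl replicate 1 was the highest by the rule, both libraries labelled sg53BP1 lay between them. CCDC171 and CUBN did not pass, with log2 fold changes of 0.41 (standard error 0.34, edgeR adjusted p = 0.428) and -0.45 (standard error 0.30, edgeR adjusted p = 0.293).

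Other genes of the pathway lists also passed in the fit without sgControl replicate 1. Of 13 cytokines of the interleukin list that were tested, 2 rose in the libraries labelled sg53BP1 (IL11 and IL18) and 5 fell (IL6, IL12A, IL15, IL23A and LIF), where 11.8% of all genes tested rose and 12.7% fell, with a median log2 fold change of -0.76. IL12A, a subunit of interleukin-12, was at 9.31 CPM in sgControl replicate 1, against 1.43 and 1.79 CPM in the libraries labelled sg53BP1 and 7.19 CPM in sgControl replicate 2, and so was high in both libraries labelled sgControl. IL18 ran the other way, with 0.240 CPM in sgControl replicate 1, 13.2 and 12.3 CPM in the libraries labelled sg53BP1 and 0.475 CPM in sgControl replicate 2. These 2 genes were picked from the list with their values in view. Of 21 NF-kB and AP-1 regulators tested, ATF3 and NFKB2 rose, TNFAIP3, FOS and RELB fell, beside the same shares of all genes, and the median was -0.18. Of 21 genes of the BMP and TGF-beta list tested, 5 rose and 10 fell, GDF6 among those that fell, beside the same 11.8% and 12.7% of all genes, with a median of -0.52. The lists were drawn up with earlier results known, and their medians stand beside a median fitted log2 fold change of 0.011 for all genes tested.

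**Figure D4:**
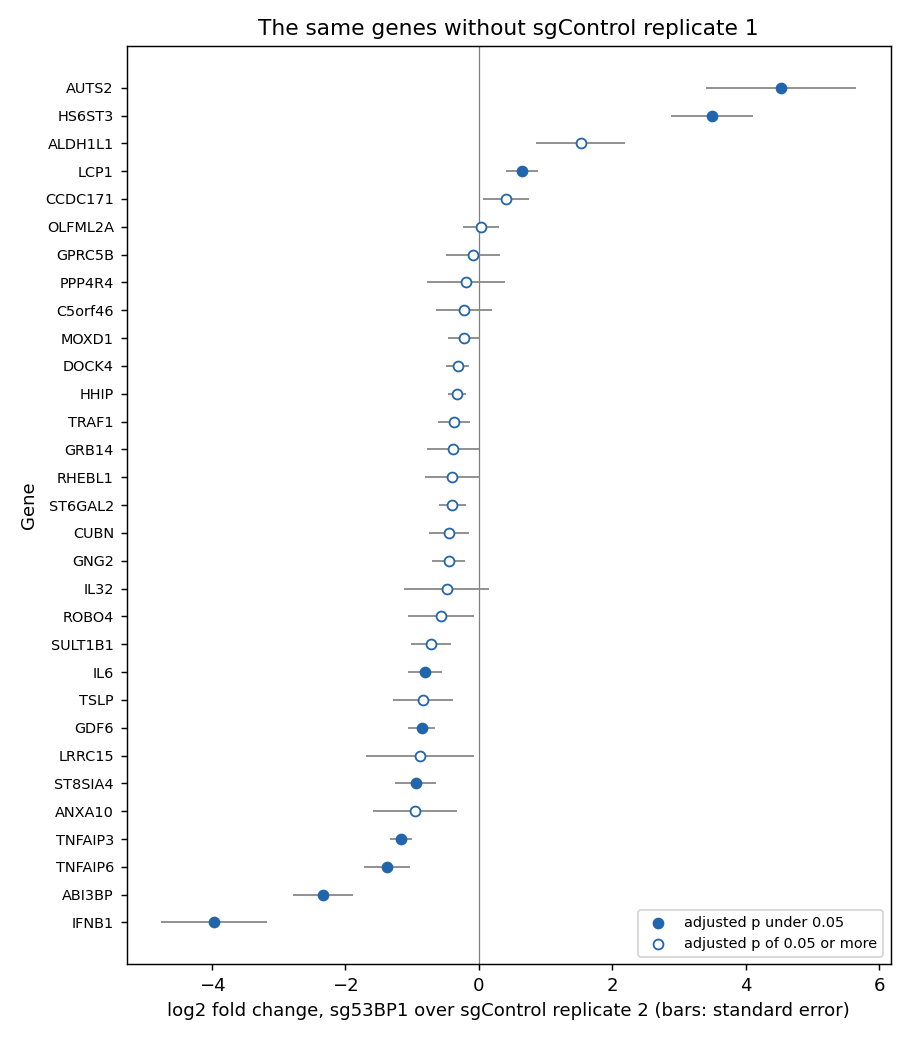
Log2 fold change of the libraries labelled sg53BP1 over sgControl replicate 2 (horizontal axis, bars are standard errors) for each of the 31 genes, with filled points where the edgeR adjusted p was under 0.05. AUTS2, HS6ST3 and LCP1 are filled on the right, and IFNB1, ABI3BP, TNFAIP6, TNFAIP3, ST8SIA4, GDF6 and IL6 on the left.

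The comparison of the groups used sgControl replicate 1 and so shares the choice of the genes. With all 4 libraries, ABI3BP alone of the 31 passed an adjusted p of 0.05 in edgeR's quasi-likelihood test, against 5.08% of 13140 genes (2.07% in the higher direction for sg53BP1 and 3.01% in the lower). ABI3BP was lower there. In the authors' deposited table, where a positive log2 fold change means higher in the sgControl columns, all 31 genes had a positive value and 9 had an adjusted p under 0.05, against 6.17% of the 14048 genes with an adjusted p there (3.56% in the direction of the set). CCDC171 had a log2 fold change of 5.09 and an adjusted p of 0.159 in the authors' deposited table, and CUBN 4.63 and 0.131. CCDC171 and CUBN thus had a large mean difference between the groups and no call in the authors' deposited table. The DESeq2 Wald test on the counts called 9 of the 31, all lower in the libraries labelled sg53BP1. Over all 19653 genes it called 942, of which 541 were lower there. The direction of the 9 was set by the rule, which put sgControl replicate 1 above every other library. The edgeR count moved when any 1 library was left out, which leaves a single library in a group. Without sgControl replicate 2, the fit sets sgControl replicate 1 alone against the pair labelled sg53BP1. That is the gap by which the rule chose the genes, so that fit is no test of the set.

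The genes of the set had longer spans than others at that level, given as a description with no test. All 31 were protein-coding, as were 97.8% of the 10246 genes at 5 CPM in sgControl replicate 1 with the same families left out. The median span from start to end was 85.5 kb in the set and 35.6 kb in those genes, and 10 of the 31 (32.3%) spanned over 100 kb, against 20.9%. The median length of merged exons was 6379 bases in the set and 5419 in those genes. The 31 genes lay on 14 chromosomes, with at most 4 on one. In the same annotation, 14 of the 31 overlap another gene by the same count, and 8 overlap one with a row in the table. Among these, IL6 overlaps STEAP1B, named after its values were seen, which was at 28.0 CPM in sgControl replicate 1, against 37.2 and 34.8 CPM in the libraries labelled sg53BP1 and 27.9 CPM in sgControl replicate 2. Without a stated strand, reads of such partners cannot be told apart.

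The ratio of 2.5 cuts through a continuous range. Just inside it were GNG2 at 2.52, ST8SIA4 at 2.54, ABI3BP at 2.60, MOXD1 at 2.64 and GDF6 at 2.65. Just outside were SSX1 at 2.43, TMEM169 at 2.39, GFPT2 at 2.35, CD83 at 2.33 and RORA at 2.27. Below the level threshold, SLC22A15, a member of the organic cation transporter family, was at 4.98 CPM in sgControl replicate 1 (83 counts), against 0.110 and 0.168 CPM in the libraries labelled sg53BP1 and 0.238 CPM in sgControl replicate 2, a ratio of 21.0 to the highest of them. It missed the set by its level alone, and was named after its values were seen.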

How the data were processed

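Per the labels' protocols, total RNA extracted with phenol and chloroform was sequenced as paired-end reads. Per the submitters' processing notes, the tools were Bowtie2 2.2.3, HISAT2 2.1.0 and HTSeq 0.6.0 and the build hg19; what each tool did, which annotation was used and whether counting used strand are not given in the sources here. The authors deposited raw counts per gene and library. Beside them the authors gave their own comparison of the groups, with a mean signal, a log2 fold change and its error, a score (the test statistic), a p-value and an adjusted p-value.

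Of 20050 rows, 397 repeats of an Ensembl identifier were removed. CPM is the count over the library total. A floor of 3 counts is 0.165 to 0.180 CPM. Tests used edgeR 4.0.16 in R 4.3.3 (filterByExpr, TMM, robust quasi-likelihood fit, group as the only term, Benjamini-Hochberg adjustment over all tested genes, threshold 0.05), and were tested on simulated data; DESeq2 1.42.0 was an alternative. Standard errors were calculated back from the F statistic. Medians of differences used log2 CPM with a prior count of 2. Gene lengths, types, overlaps and order came from GENCODE release 29, which matched all 19653 identifiers and is on another build, so no coordinates were taken from it; promoters came from RefSeq (GRCh38.p14), matched by symbol.

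The genes, role lists, motifs and tests were chosen with earlier results of these data known. Named genes were all 31, TP53BP1, and the 5 just inside and the 5 just outside the ratio; any other gene was picked with its values in view. Of 37 role lists, 30 held no gene of the set, and 10 genes of the set stood on a list.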

Additional observations from a re-analysis of the deposited data

How the results depend on the processing

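The number of genes that met the rule was 31, and 32 with TMM-scaled CPM or with DESeq2 size factors, each time including all 31. It was 68 at a minimum of 1 CPM, 19 at 10 CPM, 58 at a ratio of 2 and 15 at a ratio of 3. Leaving out 1 of the other libraries gave 31 to 145 genes, with 145 without sgControl replicate 2. In the comparison of the groups, 667 genes were called, 1548 when no filter was set and 297 with replicate number as a block; leaving out 1 library gave 5 to 3358, with 5 without either library labelled sg53BP1, 2493 without sgControl replicate 2 and 3358 without sgControl replicate 1. Of the 31 genes this comparison called 1, against 18 with no filter and 0 of 16 tested where the mean had to reach 5 CPM. It called 9 by the DESeq2 Wald test and 2 under the replicate block (ABI3BP and IFNB1). The count also moved when 1 library was left out, which leaves a single library in a group. Without sgControl replicate 2 that library is sgControl replicate 1, by which the rule chose the genes, so that fit is no test of the set. Whether the replicate numbers pair the libraries is not stated. Deviations of equal numbers from their group means correlated with r = 0.045 across 10408 genes, which are not independent replicates. With so few libraries per group, this value cannot settle whether they are paired. In the fit without sgControl replicate 1, 3358 genes were called, 1833 with no filter and 1674 with the DESeq2 Wald test. Of the 31 genes it called 10, against 5 of 11 tested where the mean had to reach 5 CPM and 3 with the DESeq2 Wald test. The median log2 difference of the set lay between -0.47 and -0.32 over its alternatives. The 197 values of single genes under an alternative hold ratios of sgControl replicate 1 and fitted fold changes. A ratio was unchanged when it stayed within its main counting interval, which all did. A fold change was unchanged when it kept direction and side of the threshold. In all, 185 values were unchanged, 10 lost a call, 2 gained one (both HHIP) and 0 changed direction. The cause of these changes was not tested. Leaving out a library labelled sg53BP1 from the fit without sgControl replicate 1 leaves no spread among samples, so no test was run.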
